A study of Homo sapiens with 3 samples.

Results

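SNARE proteins are the membrane fusion machinery of the cell, and 36 of the 23131 genes in the deposited expression table of HCT-116 cells belong to this set. The members were taken by symbol: the numbered syntaxins (*STX*), the numbered vesicle-associated membrane proteins (*VAMP*), *SNAP23*, *SNAP25*, *SNAP29* and *SNAP47*, and *YKT6*, *SEC22B*, *GOSR1*, *GOSR2*, *BET1*, *BET1L*, *VTI1A*, *VTI1B* and *USE1*. The symbols alone decide membership. HCT-116 is a colon carcinoma line that carries wild-type APC and, in all groups alike, the CTNNB1 ΔSer45 allele, which encodes a β-catenin that resists degradation. It was sequenced as 1 library after transfection with pooled anti-*APC* siRNA, 1 after pooled scrambled siRNA and 1 without siRNA. The last is titled untransfected and described as having received the reagent alone (mock), so whether its cells met the reagent is unclear. Transfections were made on 2 consecutive days, and RNA was taken 48 hours after the second. The cells are 1 line with 1 library per group, so no difference reported here has a replicate check and no test was possible. Every ratio is anti-*APC* siRNA over untransfected, and siRNA delivery and the loss of *APC* cannot be told apart in it. The library with anti-*APC* siRNA is called the knockdown library, and paired values give it first and the untransfected library second. The library with scrambled siRNA is not analysed here.

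Each SNARE protein contributes 1 or more coiled segments to a tight bundle of helices that pulls a vesicle and its target membrane together. Members are named by the residue they place in the centre of that bundle: Q-SNAREs place a glutamine and R-SNAREs an arginine. A working bundle joins a Qa, a Qb, a Qc and an R segment, and the SNAP proteins supply both Qb and Qc (Qbc). Different combinations serve different routes, and in intestinal epithelium they carry proteins to the apical and basolateral surfaces and recycle them through endosomes and the trans-Golgi network. The 36 genes comprise 13 Qa, 4 Qb, 6 Qc, 4 Qbc and 9 R members.

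The labels were checked first. *APC* had 3.43 FPKM (read fragments per kilobase of transcript and library size) in the knockdown library and 9.15 FPKM in the untransfected library, which leaves 0.375 of its level. *AXIN2*, a feedback target of WNT signaling, had 28.7 and 4.11 FPKM. Of 10 colon epithelial markers, 6 had at least 1 FPKM in both libraries, and *KRT20*, *VIL1*, *CDX1* and *CEACAM5*, which mark differentiated intestinal epithelium, did not. The summed level of the 10 was 1295 FPKM after knockdown and 1650 FPKM in untransfected cells. Endothelial markers (0 of 4 at 1 FPKM, sums of 0.102 and 0.128 FPKM) and leukocyte markers (0 of 5, 0.324 and 0.266 FPKM) were near 0. Among 5 fibroblast markers *COL1A1* alone passed 1 FPKM (sums of 3.13 and 2.88 FPKM), and among 5 neuronal or neuroendocrine markers *ENO2* alone did (12.3 and 16.7 FPKM). Rarely read genes showed whole-read steps, from which 1 read was worth 0.13 more on the log2 scale in the anti-*APC* library. Transcript lengths then placed the depth near 25700000 reads for untransfected and 23500000 for knockdown cells. Read numbers given below follow from these depths, are estimates, and yield a range for counting error only. That range is no measure of spread between cultures: among the 10140 genes with a known transcript length it lay above 0 in 24.7% and below 0 in 37.3%.

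The sequences just upstream of the genes that stand at either end of the results, and of the pair that shares a locus, are printed first, because the study centres on DNA-binding sites of TCF7L2 (a WNT-responsive factor) and AP-1. Each run is the 250 bases before the RefSeq start on GRCh38.p14, 5′ to 3′ on the strand of the gene. A transcript that starts farther upstream can cover part of a run. *STX3* (chr11:59755126-59755375, plus strand) was the member with the highest ratio, *VAMP2* (chr17:8162877-8163126, minus strand) the expressed member with the lowest, and *STX16* (chr20:58651033-58651282, plus strand) and *NPEPL1* (chr20:58688881-58689130, plus strand) lie at 1 locus. Capitals mark GC boxes (GGGCGG on either strand), the type of site bound by SP1.
STX3: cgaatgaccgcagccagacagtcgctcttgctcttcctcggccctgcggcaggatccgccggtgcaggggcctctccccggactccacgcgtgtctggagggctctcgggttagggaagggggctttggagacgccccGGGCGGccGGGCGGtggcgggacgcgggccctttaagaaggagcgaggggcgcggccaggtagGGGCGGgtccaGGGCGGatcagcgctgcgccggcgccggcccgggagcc
VAMP2: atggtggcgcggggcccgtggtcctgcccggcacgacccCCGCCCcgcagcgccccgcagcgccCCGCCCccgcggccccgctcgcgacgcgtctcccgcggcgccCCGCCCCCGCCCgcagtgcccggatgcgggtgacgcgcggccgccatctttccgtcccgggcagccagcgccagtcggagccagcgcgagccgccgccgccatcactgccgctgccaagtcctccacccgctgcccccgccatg
STX16: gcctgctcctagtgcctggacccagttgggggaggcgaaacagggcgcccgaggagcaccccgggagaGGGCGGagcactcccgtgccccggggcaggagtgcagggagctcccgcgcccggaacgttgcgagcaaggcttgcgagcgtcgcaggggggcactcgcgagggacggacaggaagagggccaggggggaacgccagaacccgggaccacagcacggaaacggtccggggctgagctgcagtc
NPEPL1: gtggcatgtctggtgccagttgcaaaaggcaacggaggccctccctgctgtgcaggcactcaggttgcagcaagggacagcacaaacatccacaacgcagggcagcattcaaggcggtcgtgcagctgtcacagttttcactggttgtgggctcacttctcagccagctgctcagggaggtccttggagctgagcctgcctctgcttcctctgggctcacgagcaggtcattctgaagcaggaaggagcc
The runs upstream of *STX3* and *VAMP2* each hold 4 GC boxes at a GC content of 74.4% and 81.6%, that of *STX16* holds 1 and that of *NPEPL1* none. The *NPEPL1* transcript whose length is used below starts farther downstream, so the bases just before that transcript are not in the *NPEPL1* run. None of these 4 runs holds the TCF7L2 letters (CAAAG after 2 bases that are each A or T), the AP-1 letters (TGACTCA) or the E-box (CACGTG), on either strand. Upstream runs were found for 31 of the 36 members. A GC box stood in 20 of the 31 (64.5%) and in 42.6% of the 35116 promoters of the RefSeq table, TCF7L2 letters in 3 (9.68%, against 12%), AP-1 letters in 0 (against 4.2%) and an E-box in 4 (12.9%, against 6.34%). The median GC content was 64.8% for the members and 58% for all promoters. The motif shares are not adjusted for GC content, so they are not a result about SNARE genes.

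The 7 matches to TCF7L2 letters and E-boxes among the members are shown with up to 12 bases on each side and the match in capitals. TCF7L2 letters lay upstream of *STX7* (chr6:132513248-132513278), *STX8* (chr17:9576043-9576070) and *STX19* (chr3:94028788-94028818), all on the minus strand.
STX7: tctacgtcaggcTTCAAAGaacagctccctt
STX8: gggaaaatgCTTTGTTtctatttaacaa
STX19: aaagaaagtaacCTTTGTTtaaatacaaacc
E-boxes lay upstream of *STX2* (chr12:130839399-130839428, minus strand), *STX6* (chr1:181022998-181023027, minus strand), *GOSR2* (chr17:46922955-46922984, plus strand) and *SNAP29* (chr22:20858811-20858840, plus strand).
STX2: agggacaaacagCACGTGtagcggaactgc
STX6: atatgccctggtCACGTGagcggggtgcgg
GOSR2: cgccttgcccttCACGTGaagccgagcctg
SNAP29: cggctttcccgcCACGTGacctctcagttg
The expression ratios of these genes appear with their classes further on. A match of letters is not evidence that a factor binds there, and the absence of one says nothing about a factor outside the window.

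Of the 36 members, 30 had a mean of at least 1 FPKM over both libraries, 5 lay below it, and *STX18* was listed at 0 in both. Levels per transcript length spanned 2.51 FPKM for *VAMP4* to 72.3 FPKM for *STX10*, as the mean of both libraries. The 6 most abundant were *STX10*, *VAMP3* (67.5 FPKM), *YKT6* (54.7 FPKM), *VAMP8* (48.6 FPKM), *SEC22B* (35.8 FPKM) and *VTI1A* (34.5 FPKM). R members thus held 4 of these 6 places, and no Qa syntaxin exceeded 17.9 FPKM, the mean level of *STX5*. The 30 genes summed to 664 FPKM in the knockdown and 666 FPKM in the untransfected library.

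**Figure D1:**
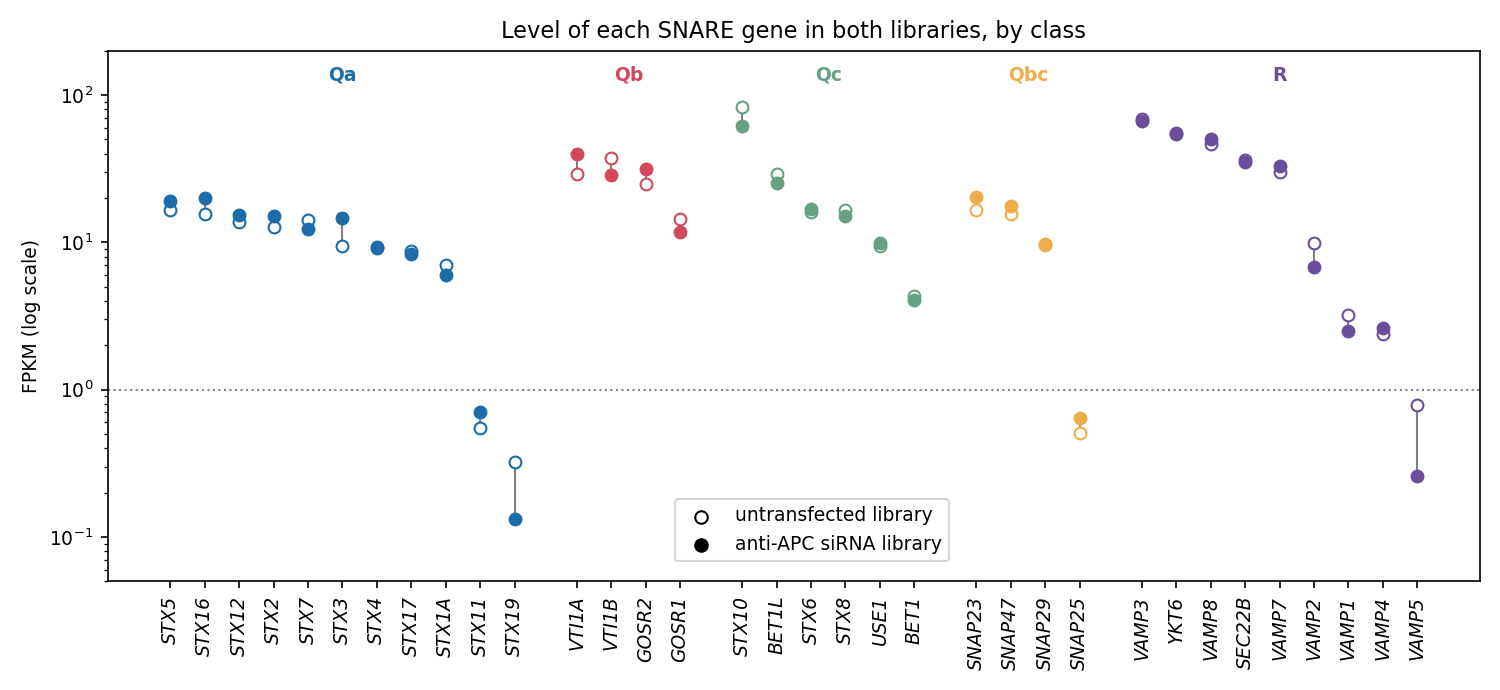
FPKM of each SNARE gene on a log scale in the untransfected (open circles) and anti-*APC* siRNA (filled circles) library, 1 library each, grouped by class; the dotted line marks 1 FPKM and genes under a mean of 0.1 FPKM are not drawn. The pair of circles lies close together for most genes, and *STX10* stands highest among Qc and *VAMP3* among R members.

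Most differences in this set were small. The median log2 ratio of the 30 members was 0.02, beside -0.05 over all 12063 genes with a mean of at least 1 FPKM. Of the 30, 16 were above 0 (53.3%, against 41.4% of all genes) and 14 below. A 1.5-fold difference was used as the mark of size, and *STX3* alone was past it on the higher side (1 of 30, or 3.33%), where 2.56% of all genes were. On the lower side 0 of 30 members were past it, where 6.61% of all genes were. These shares are near the background and are not a result about the set. Past 2-fold there was no member, beside 0.953% of all genes on the higher and 1.37% on the lower side. At a smaller mark of 0.32 on the log2 scale, 4 members were higher (13.3%, against 7.17% of all genes) and 4 were lower (13.3%, against 18.4%). The central 50% of members lay between -0.18 and 0.17 on the log2 scale, and that of all genes between -0.24 and 0.11. By counting error alone the range lay above 0 in 10 members (33.3%), below 0 in 8 (26.7%), and held 0 in 12. Among the 10140 genes with a known transcript length it lay above 0 in 24.7% and below 0 in 37.3%.

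**Figure D2:**
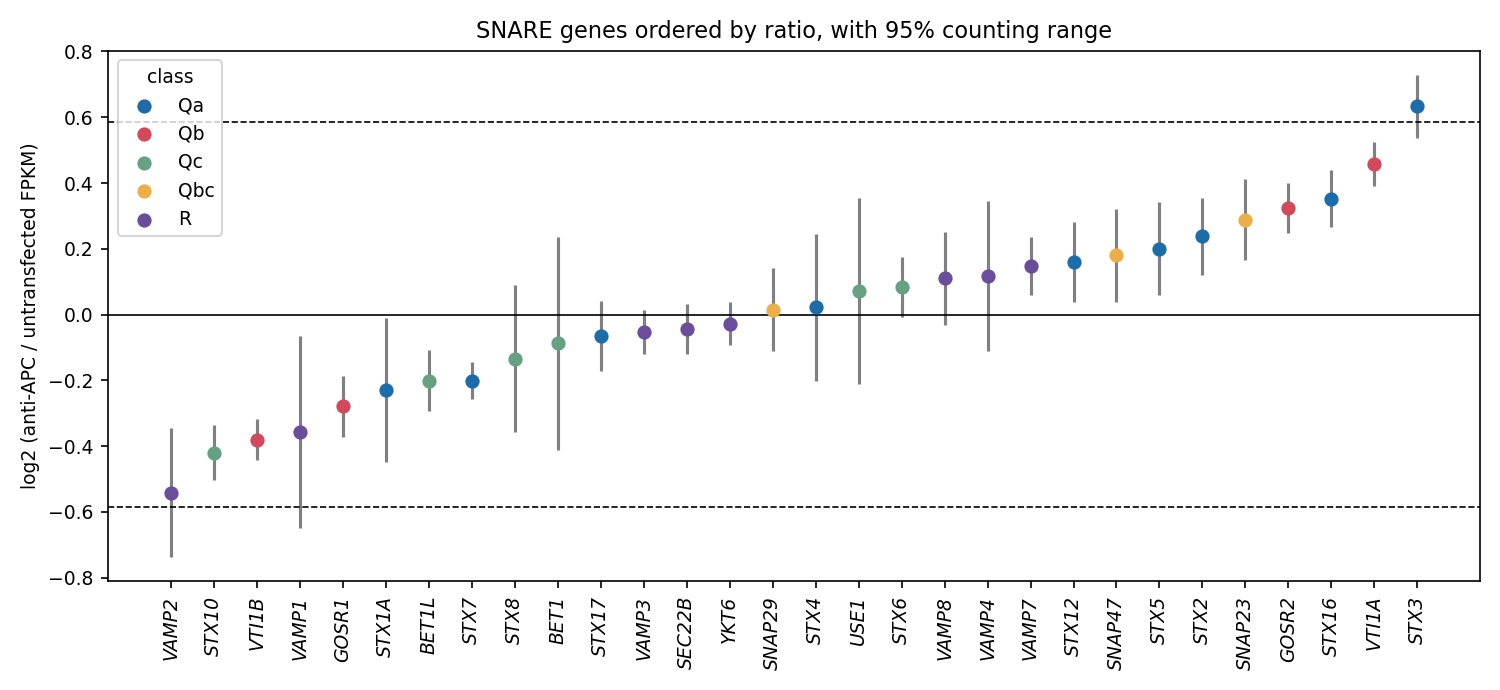
Log2 ratio of FPKM, anti-*APC* siRNA over untransfected, of the 30 SNARE genes with a mean of at least 1 FPKM, ordered by ratio and coloured by class; bars are 95% counting ranges from estimated reads and cover no spread between cultures. Dashed lines mark 1.5-fold; *STX3* is the 1 gene beyond them.

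**Figure D3:**
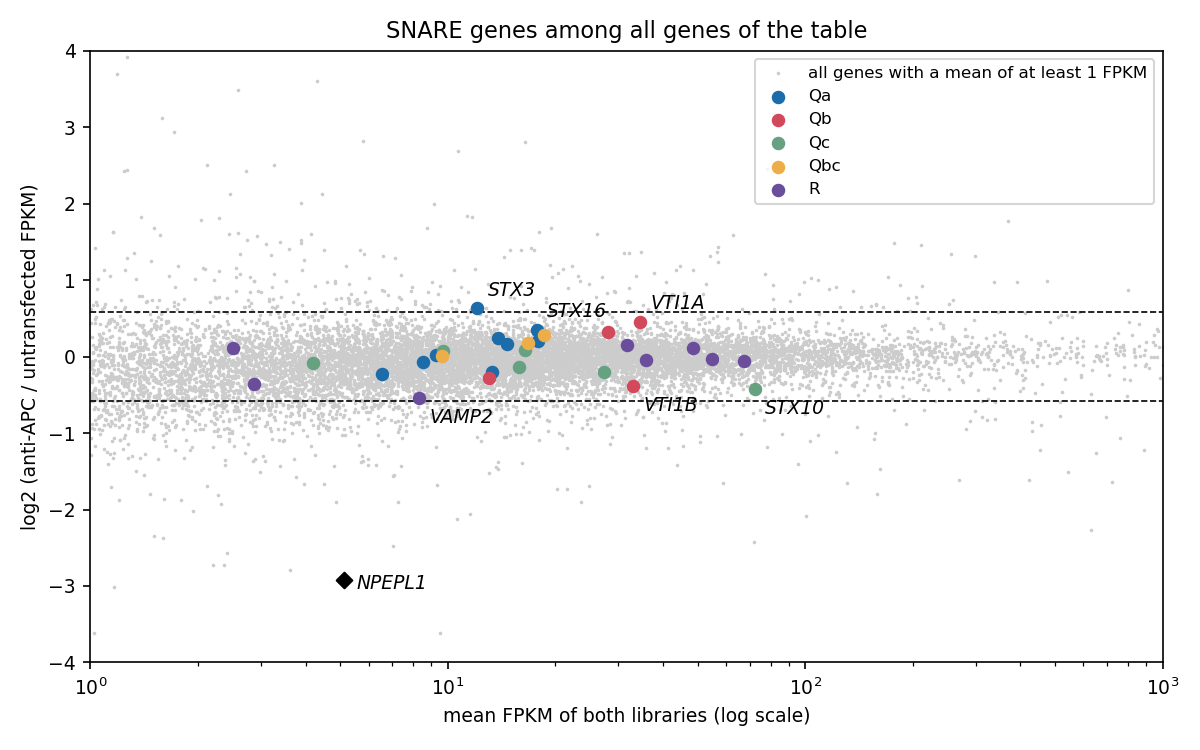
Log2 ratio against the mean FPKM of both libraries (log scale) for all 12063 genes (grey; 91 lie outside the axes), the 30 SNARE genes (coloured by class) and *NPEPL1* (diamond). The SNARE genes lie within the body of the cloud, with *STX3* just above the dashed 1.5-fold line and *NPEPL1* far below the other.

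Qa members are the syntaxins that sit on the target membrane and organise the bundle. *STX3* (chromosome 11 of GRCh37, 59480929 to 59573355), the syntaxin of the apical surface in polarised epithelia, had 14.7 FPKM in the knockdown and 9.48 FPKM in the untransfected library, from an estimated 2125 and 1500 reads. This was a 1.55-fold difference, or 0.63 on the log2 scale, with a counting range of 0.54 to 0.73. The ratio exceeded that of 97.8% of all genes and of 98.5% of the 5810 genes between 5 and 30 FPKM, whose central 95% spanned -0.70 to 0.48. *STX3* was alone at its locus in the table, and *OR10V1*, which overlaps 335 of its exon bases on the opposite strand, was listed at 0 in both libraries. On a scale of FPKM plus 1 its ratio fell just short of 1.5-fold.

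The other plasma membrane syntaxins stood lower in ratio. *STX4*, which serves the basolateral surface, had 9.32 and 9.18 FPKM (log2 ratio 0.02, counting range -0.20 to 0.25). *STX2* had 15.0 and 12.7 FPKM (0.24, range 0.12 to 0.36), and *STX1A*, a syntaxin of regulated secretion, 6.02 and 7.06 FPKM (-0.23, range -0.45 to -0.01). In the untransfected library *STX3* stood at 1.03 times the level of *STX4*, and in the anti-*APC* library at 1.58 times. The log2 ratio of *STX3* exceeded that of *STX4* by 0.61 (counting range 0.37 to 0.85), that of *STX2* by 0.39 (0.24 to 0.55) and that of *STX1A* by 0.86 (0.62 to 1.10).

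Among syntaxins of internal membranes, *STX5*, the Qa member of ER to Golgi transport, had 19.1 and 16.7 FPKM (log2 ratio 0.20). *STX12*, a recycling endosome syntaxin, had 15.4 and 13.8 FPKM (0.16), and *STX7*, of late endosomes, 12.4 and 14.2 FPKM (-0.20). *STX17*, which brings lysosomes to autophagosomes, had 8.31 and 8.70 FPKM (-0.07). Over the 9 Qa members that passed 1 FPKM the median was 0.16, and 6 were above 0 (66.7%, against 41.4% of all genes). They summed to 120 and 107 FPKM.

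*STX16* (chromosome 20 of GRCh37, 57226328 to 57254582) is the Qa member for vesicles that return from endosomes to the trans-Golgi network. It had 19.9 FPKM after knockdown and 15.6 FPKM in untransfected cells, 1.28-fold higher (log2 ratio 0.35, counting range 0.27 to 0.44, about 2304 and 1977 reads). In the table it shares 1 locus with *NPEPL1*, a probable aminopeptidase, and with the read-through transcript *STX16-NPEPL1*. *NPEPL1* (57264187 to 57294294) had 1.20 FPKM after knockdown against 9.08 FPKM in untransfected cells, from about 62 and 512 reads. Its level was thus 0.132 of that without siRNA (log2 ratio -2.92, counting range -3.31 to -2.54), and only 4 of the 12063 genes had a lower ratio. The read-through row had 0.231 and 0.262 FPKM, about 19 and 23 reads.

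All 3 genes lie on the plus strand, and 9604 bases separate the end of *STX16* from the start of *NPEPL1* in GENCODE. No exon base is shared by *STX16* and *NPEPL1*. The read-through model, however, shares 1446 of its 3859 exon bases with *STX16* and 1685 with *NPEPL1*, and the table's value for *STX16* depends on how reads in these exons were divided. The share of *NPEPL1* in the summed FPKM of the pair was 36.8% in untransfected and 5.68% in anti-*APC* cells. Together the pair had 21.1 FPKM after knockdown against 24.6 FPKM in untransfected cells (log2 ratio -0.23), a sum that gives transcripts of unlike length equal weight. FPKM was also multiplied by transcript length in kilobases (from 4937 bases for *STX16* and 2191 for *NPEPL1*), which gives fragments scaled to library size. On that scale *STX16* had 98.1 and 76.9, *NPEPL1* 2.62 and 19.9, and the pair together 101 and 96.8, a log2 ratio of 0.06, which is above 0 as in the *STX16* row but smaller. Whether reads passed between the rows was not tested.

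**Figure D4:**
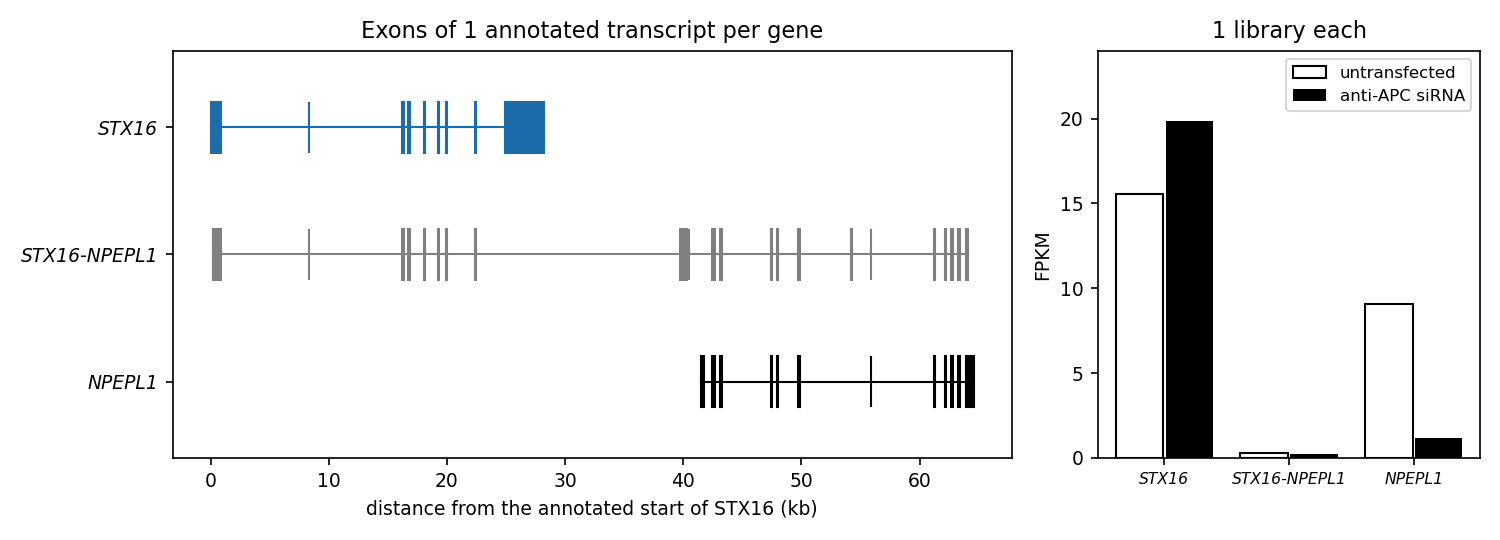
Left, exons (boxes) of 1 annotated transcript each of *STX16*, *STX16-NPEPL1* and *NPEPL1* against the distance in kb from the annotated start of *STX16*. Right, bars of the FPKM of each in the untransfected (open) and anti-*APC* siRNA (filled) library, 1 library each: *STX16* is higher (19.9 against 15.6) and *NPEPL1* lower (1.20 against 9.08) with anti-*APC* siRNA.

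The known partners of *STX16* were read beside it. *VTI1A* (chromosome 10 of GRCh37, 114206756 to 114578503), the Qb member of this bundle, had 39.9 FPKM after knockdown against 29.1 FPKM, 1.37-fold higher (log2 ratio 0.46, counting range 0.39 to 0.53). Of its exon bases 322 overlap *ZDHHC6* on the opposite strand, which had 96.0 and 87.3 FPKM. It was the member nearest to 1.5-fold on the inner side among higher genes. *STX6*, a Qc partner, had 16.9 and 16.0 FPKM (0.08, range -0.01 to 0.17), and *VAMP4*, the R partner at the trans-Golgi network, 2.61 and 2.41 FPKM (0.12, range -0.11 to 0.35). All of *STX16*, *VTI1A*, *STX6* and *VAMP4* were above 0, with a median of 0.24, where 41.4% of all genes were above 0.

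The alternative partners *STX10* and *VAMP3* were not. *STX10* (chromosome 19, 13254872 to 13261197), a Qc syntaxin related to *STX6*, had 61.8 FPKM after knockdown against 82.7 FPKM. This left 0.747 of its level (log2 ratio -0.42, counting range -0.50 to -0.34, about 1893 and 2775 reads). *VAMP3*, the R member of recycling endosomes, had 66.2 and 68.7 FPKM (-0.05, range -0.12 to 0.01). The log2 ratio of *STX6* exceeded that of *STX10* by 0.50 (0.38 to 0.63), and *STX6* stood at 0.193 of the *STX10* level without and 0.274 with anti-*APC* siRNA.

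The 4 Qb members split evenly by direction. *VTI1A* and *GOSR2*, a Golgi SNARE of the ER to Golgi bundle, were higher: *GOSR2* had 31.3 and 25 FPKM (log2 ratio 0.32, counting range 0.25 to 0.40). *VTI1B*, the late endosomal relative of *VTI1A*, had 28.6 and 37.3 FPKM (-0.38, range -0.44 to -0.32). *GOSR1*, which acts between Golgi cisternae, had 11.8 and 14.3 FPKM (-0.28, range -0.37 to -0.19). Between relatives the log2 ratio of *VTI1A* exceeded that of *VTI1B* by 0.84 (0.75 to 0.93) and that of *GOSR2* exceeded *GOSR1* by 0.60 (0.48 to 0.72). *VTI1A* stood at 0.780 of the *VTI1B* level in untransfected cells and at 1.40 times that level with anti-*APC* siRNA. *VTI1B* overlaps *ARG2* on the opposite strand in 904 of its 5768 exon bases, and *ARG2* had 13.3 and 9.32 FPKM. The sum of *VTI1B* and *ARG2* had a log2 ratio of -0.15. Whether the authors assigned reads by strand is not given in the sources used here. Without strand, reads of overlapping bases on opposite strands cannot be told apart, here and for the overlaps named elsewhere.

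Of the 6 Qc members, 2 were above 0 (33.3%, against 41.4% of all genes) and 4 below, with a median of -0.11. *BET1L*, of Golgi transport, had 25.4 and 29.2 FPKM (-0.20). *STX8*, a late endosomal Qc syntaxin, had 15.1 and 16.6 FPKM (-0.13, counting range -0.36 to 0.09). *USE1*, of Golgi to ER return, had 9.91 and 9.43 FPKM (0.07), and *BET1*, of ER to Golgi transport, 4.06 and 4.31 FPKM (-0.09). Because of *STX10*, the Qc sum was 133 FPKM after knockdown against 158 FPKM, the class sum furthest from equality (log2 ratio -0.25).

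All of the 3 Qbc members that passed 1 FPKM were above 0, where 41.4% of all genes were. *SNAP23*, the widely expressed plasma membrane form, had 20.4 and 16.7 FPKM (log2 ratio 0.29, counting range 0.16 to 0.41). It shares 221 exon bases with *LRRC57* on the opposite strand, which had 12.6 and 9.34 FPKM. *SNAP47* had 17.8 and 15.7 FPKM (0.18), at a locus with *JMJD4*, which overlaps 2323 of its 10190 exon bases on the opposite strand and had 5.49 and 4.62 FPKM, and with *LOC100130093*, which had 1.88 and 5.62 FPKM. *SNAP29*, the partner of *STX17* on autophagosomes, had 9.69 and 9.60 FPKM (0.01, range -0.11 to 0.14), and 225 of its exon bases overlap *PI4KA* on the opposite strand (15.4 and 15.9 FPKM).

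The R members sit mainly on vesicles. *VAMP2* (chromosome 17 of GRCh37, 8062467 to 8066864), the R member of regulated exocytosis, had 6.76 FPKM after knockdown against 9.85 FPKM, from about 338 and 539 reads. Its level was 0.687 of that in untransfected cells (log2 ratio -0.54, counting range -0.74 to -0.35), which made it the member nearest to 1.5-fold on the inner side among lower genes. Among the 5810 genes between 5 and 30 FPKM, 5.37% had a lower ratio. *VAMP1*, its close relative, had 2.52 and 3.23 FPKM (-0.36, range -0.65 to -0.07) and overlaps *TAPBPL* on the opposite strand, which had 0.226 and 0.269 FPKM. *VAMP2* and *VAMP1* did not differ in ratio beyond counting error (-0.18, range -0.54 to 0.17). *VAMP3* was at 6.97 times the *VAMP2* level without and at 9.79 times with anti-*APC* siRNA.

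The remaining R members lay within 1.11-fold of untransfected cells. *VAMP8*, of late endosomes and regulated secretion, had 50.5 and 46.8 FPKM (0.11). *VAMP7*, of lysosomes, had 33.2 and 30.01 FPKM (0.15). The table places *VAMP7* on the Y copy of a pseudoautosomal region that X and Y share, so its reads cannot be assigned to either chromosome. *YKT6*, a lipid-anchored R member of the Golgi and autophagosomes, had 54.2 and 55.2 FPKM (-0.03). *SEC22B*, of ER to Golgi transport, had 35.3 and 36.4 FPKM (-0.04), and its division of reads with 3 annotated pseudogene copies is uncertain. The median over the 8 R members was -0.04, and their sums were 251 and 253 FPKM.

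Read by route, the 7 members of the endosome and trans-Golgi group had a median log2 ratio of 0.12. Of these 7, 5 were above 0 (71.4%, against 41.4% of all genes). The 7 plasma membrane members had a median of 0.02 and the widest span, from -0.54 (*VAMP2*) to 0.63 (*STX3*). The 8 ER and Golgi members had a median of -0.04 within -0.28 to 0.32, and the 5 of late endosomes and lysosomes a median of -0.13. In the late endosomal bundle *STX7*, *VTI1B* and *STX8* were below 0 and *VAMP8* above. In the autophagosomal bundle *STX17*, *SNAP29* and *VAMP8* lay between -0.07 and 0.11. Of the members with TCF7L2 letters upstream, *STX7* and *STX8* stood at -0.20 and -0.13, and *STX19* was rarely read. The 4 with an E-box stood at 0.24 (*STX2*), 0.08 (*STX6*), 0.32 (*GOSR2*) and 0.01 (*SNAP29*). The counting range held 0 for *STX8*, *STX6* and *SNAP29*, and no relation of motif to ratio was tested.

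Most members below 1 FPKM rest on few reads, and *STX11* on more. *SNAP25*, the neuronal Qbc member, had 0.643 and 0.509 FPKM, about 31 and 27 reads by transcript length, in a ratio that 15 and 13 whole reads or a multiple of them would give. *STX11*, a syntaxin of immune cells, had 0.703 and 0.553 FPKM, about 91 and 78 reads (log2 ratio 0.35, counting range -0.09 to 0.78). *VAMP5*, a muscle form whose gene starts 2399 bases beyond *VAMP8*, had 0.258 and 0.784 FPKM, about 4 and 13 reads by transcript length (log2 ratio -1.61, range -3.22 to 0.01). Its ratio is also that of 3 and 10 whole reads, for which the range would be wider. *STX19*, an epithelial syntaxin without a membrane anchor, had 0.132 and 0.325 FPKM, about 4 and 10 reads (-1.30, range -3.05 to 0.45). The counting range held 0 in each of these 4 genes. *STX18*, the Qa member of Golgi to ER return, carries the FAIL status of Cuffdiff together with its neighbour *D4S234E*. All 269 rows with that status are listed at 0, so its value is a failed estimate and says nothing of its expression. Of the 36 members, 8 share a locus row with another gene. In 2 of these cases the other gene is a microRNA: *MIR4284* beside *STX1A*, listed at 0 after knockdown and 75.7 FPKM in untransfected cells, and *MIR4295* beside *VTI1A*, listed at 0 in both.

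Genes that act on or beside SNAREs were read from 11 lists with 74 genes. All were in the table, 56 of them with a mean of at least 1 FPKM. A list of 4 other SNAREs or SNARE relatives is among the 11. Their median log2 ratio was -0.11, and 18 were above 0 and 38 below, where 4990 of all 12063 genes were above and 7073 below. A 1.5-fold difference was seen in 1 gene on the higher side (1.79%, against 2.56% of all genes) and in 2 on the lower side (3.57%, against 6.61%). *SYT1*, a calcium sensor of synaptic exocytosis, had 23.6 FPKM after knockdown against 14.0 FPKM, 1.69-fold higher (log2 ratio 0.76, counting range 0.67 to 0.85). *SYT17*, a synaptotagmin relative, had 1.72 and 3.79 FPKM (-1.14, range -1.44 to -0.84), and *CPLX1*, a complexin that clamps assembled SNAREs, had 1.49 and 2.47 FPKM (-0.72, range -1.13 to -0.31). No gene among the 8 SM proteins, which chaperone syntaxins, or the 4 disassembly factors was past 1.5-fold. *NSF*, the ATPase that takes spent bundles apart, had 49.7 and 48.6 FPKM (0.03) at a locus row with 3 other genes.

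Tethers bring a vesicle close before SNAREs act, and none of their 32 measured genes was past 1.5-fold. Of all genes, 2.56% were past it on the higher side and 6.61% on the lower side. All 8 genes of the COG complex, a Golgi tether, lay below 0 with a median of -0.15 within -0.27 to -0.05, beside a median of -0.05 for all genes, of which 7073 of 12063 lay below 0. The 5 genes of GARP and EARP, the tethers that work with *STX16*, had a median of 0.02, with 4 above 0. The exocyst had a median of -0.13 over 9 genes, of which *EXOC1* (19.3 and 15.2 FPKM, 0.35) was highest. HOPS and CORVET had a median of -0.14 over 7 genes and the Dsl1 tether -0.07 over 3. The 3 syntaxin binders outside the SM group had a median of -0.03. The 4 SNAREs or SNARE relatives outside the rule (*BNIP1*, *SEC22A*, *SEC22C* and *TSNARE1*) ranged from -0.31 to 0.32.

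**Figure D5:**
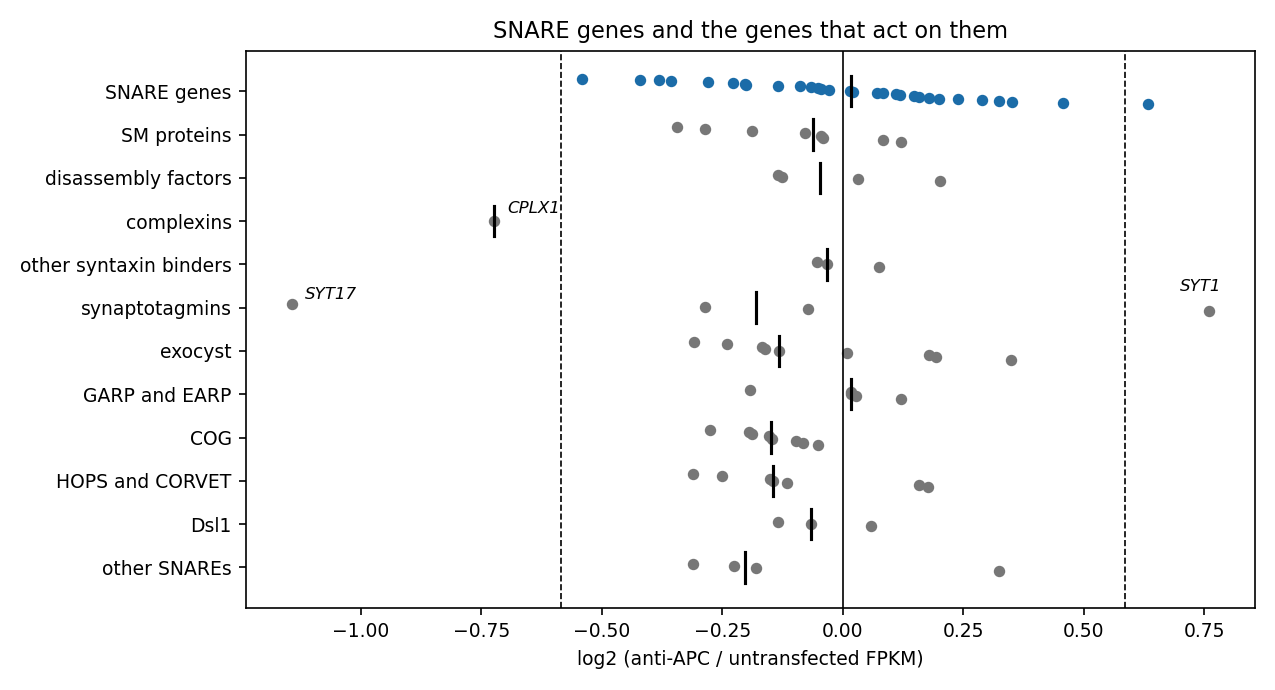
Log2 ratio of FPKM, anti-*APC* siRNA over untransfected, of single genes (points) in the SNARE set and in 11 lists of genes that act on or beside it; bars are medians and dashed lines mark 1.5-fold. *STX3* and *SYT1* lie beyond the line on the higher side, and *SYT17* and *CPLX1* on the lower side.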

How the data were processed

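HCT-116 RNA was sequenced as single-read TruSeq libraries. The authors assigned reads with Cufflinks and deposited FPKM per gene symbol from Cuffdiff for the anti-*APC* and untransfected libraries. The labels' processing notes name hg19; the aligner, annotation and versions are not given in the sources used here. FPKM of multi-isoform or overlapping genes depends on how Cufflinks divides reads. The file also holds the authors' log ratio, test statistic, *p*, *q* and significance call, which were not used.

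Members, lists and the size rule were chosen with earlier results of these data known. Log2 ratios of FPKM were computed without a pseudocount for the 12063 genes with a mean of at least 1 FPKM and no library at 0. Named members are those past 1.5-fold, the 3 most abundant of each class, *STX16* and its partners, those nearest to 1.5-fold and those sharing a locus; values of the other members are given in brief. In lists, genes past 1.5-fold are named; *NSF* and *EXOC1* were added after their values were seen.

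Depth was read from 2199 rarely read genes (mean below 0.3 FPKM, alone at their locus), of which 344 share the ratio of equal read numbers. Reads are FPKM times canonical transcript length times depth, and counting ranges are 1.96 standard errors. Coordinates and lengths come from GENCODE 44 on GRCh37, which held all 36 members; promoters come from RefSeq on GRCh38.p14. *VPS51* and *VPS50* were read from the rows *C11orf2* and *CCDC132*. Values of 1 member below 1 FPKM and of 1 neighbouring gene are not reported here. The steps were tested on simulated data. Python 3.11.15, numpy 2.4.6, pandas 2.3.3 and matplotlib 3.10.9 were used.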

Additional observations from a re-analysis of the deposited data

How the results depend on the processing

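With 1 library per group, no spread between cultures was measured. Other fold marks, minimums, pseudocounts and centring were tried. With a smaller threshold (0.32 on the log2 scale), 4 of 30 members were higher and 4 lower, and 3 of 56 list genes were higher. Of all genes, 7.17% were higher and 18.4% lower at that mark. With 2-fold, 0 members and 0 list genes were higher and 1 list gene was lower. Of all genes, 0.953% were higher and 1.37% lower past 2-fold. A minimum mean of 0.1 FPKM gave 2 lower members of 34, and 3 higher and 4 lower list genes of 62. Of all genes, 4.43% were higher and 10.5% lower under that minimum. No minimum gave 2 lower members of 35, and 5 higher and 4 lower list genes of 64, beside 6.65% and 12.8% of all genes. A minimum of 5 FPKM left 0 lower list genes of 49, beside 3.77% of all genes. The 2 lower members are *VAMP5* and *STX19*. With a pseudocount of 1 FPKM, 0 members were higher and 1 list gene was lower, because a pseudocount shrinks ratios. Of all genes, 1.88% were then higher and 3.71% lower. The log2 ratio was 0.35 for *STX16* alone and -0.23 for the summed FPKM of *STX16* and *NPEPL1*, which share no exon base. Weighted by transcript length that sum gave 0.06, so the sign of the sum depends on adding transcripts of unlike length. The summed FPKM of *STX16* and the read-through row, which shares exons with it, gave 0.34. How reads were divided was not tested. The other counts moved by at most 1.5 times, and the median log2 ratio of the members stayed between 0.02 and 0.07. For 22 single members, all 66 alternative ratios lay within counting error, and 2 changed sign (*VAMP3* and *YKT6*, both near 0). These alternatives were the pseudocounts and the centring, which reuse the same library values and shift ratios little at these levels. That result was therefore largely set in advance and is no measure of robustness. Not every expressed member was recomputed in this way. A contrast against scrambled siRNA was not run, because the table used holds the other two libraries. No paired analysis was possible because the labels give no replicate numbers and each group has 1 library.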
